A study of Mus musculus with 8 samples.

Results

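Activin signalling was followed through 9 genes out of the 45706 in the gene table, taken by name as the genes of its ligands, receptors and follistatin-type proteins. They are the ligand subunits *Inhba* and *Inhbb*, the type I receptors *Acvr1*, *Acvr1b* and *Acvr1c*, the type II receptors *Acvr2a* and *Acvr2b*, and *Fst* and *Fstl4*. All 9 were found and all 9 passed the filter on low counts. The data are bulk RNA-seq of hippocampal neurons, cultured from wild-type C57/Bl6 mouse embryos at day 18 and left in culture for 12 to 14 days. They were exposed for 4 h to melanin-concentrating hormone (MCH) peptide at 1 µM or to H2O, the control vehicle, in 4 wells per treatment. All wells received an agent against glial overgrowth, insulin and B27 supplement. The wells came from 2 cultures with 2 wells per treatment in each, the culture of a well is not named in the labels, and *P* values therefore measure the spread between wells. A label tags every sample with an Alzheimer's disease model, whereas the genotype given for both groups is wild type.

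Activins are secreted dimers of β subunits of the TGF-β superfamily, activin A being a pair of βA chains and activin B a pair of βB chains. An activin dimer binds a type II receptor, which recruits and phosphorylates a type I receptor, and the activated complex phosphorylates Smad2 and Smad3, which enter the nucleus with Smad4. Follistatin binds activins outside the cell and keeps them from their receptors. In the hippocampus, activin A is known as a factor that synaptic activity induces and that acts on dendritic spines and neuronal survival.

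None of the 9 genes changed detectably with MCH. The comparison of MCH with vehicle by edgeR's quasi-likelihood test called 0 of the 9, against 0.234% of the 14962 genes tested, at a Benjamini–Hochberg adjusted *P* value under 0.05. Adjusted *P* values of the 9 ranged from 0.705 in *Acvr2b* to near 1 in *Inhba* and *Fstl4*. Without adjustment, 0 of the 9 had a *P* value under 0.05, against 8.5% of all genes tested. In 0 of the 9 did the 4 MCH-treated wells lie apart from the 4 vehicle-treated wells, against 6.03% of all genes. DESeq2 and limma voom also called 0 of the 9, with 1.14% and 0.187% of all genes called. The log2 fold change was positive in 8 of the 9 with a median of 0.11. Over all genes tested it was positive in 7325 of 14962 with a median of −0.0027. Without MCH replicate 1, 5 of the 9 were positive.

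Larger differences lay between wells of the same treatment. The first principal component of log2 CPM (a gene's count scaled to the TMM-adjusted total of its library) was taken with treatment means removed. It held 59.8% of the variance and set apart replicates 1 and 2 from replicates 3 and 4 in both treatments. This split of the wells was read from these counts, so differences across it are given without a test. In 5 of the 9 genes (*Inhba*, *Acvr1*, *Acvr1c*, *Acvr2a* and *Fst*) the 4 wells of one side did not overlap the 4 wells of the other, against 29.6% of all genes tested. The summed level of 6 astrocyte markers, in TPM (reads scaled for transcript length and depth), was 163 to 227 in replicates 1 and 2 and 767 to 905 in replicates 3 and 4. Within these sums *Gfap*, the intermediate filament of astrocytes, averaged 104.6 and 482 TPM and *Aqp4*, their water channel, 3.16 and 19.7 TPM. The 8 neuronal markers summed to 4770 to 5023 TPM in replicates 1 and 2 and 4459 to 4581 TPM in replicates 3 and 4. Oligodendrocyte lineage markers (6 genes) summed to 35.9 to 41.8 and 93.1 to 112.7 TPM, microglial markers (6 genes, *Tmem119* at no more than 3 counts in any well) to 4.71 to 7.33 and 9.02 to 13.6 TPM, and markers of fibroblasts or vessels (7 genes) to 15.3 to 24.2 and 47.9 to 51.6 TPM. *Olig1* carried most of the oligodendrocyte lineage difference (21.5 and 82.6 TPM on average, with *Mbp* at 14.8 and 15.7), *C1qa* most of the microglial one (3.12 and 8.10 TPM, with *Csf1r* at 1.4995 and 1.385) and *Dcn* most of the last one (16.2 and 44.0 TPM). Between treatments the astrocyte sum overlapped, with 198 to 792 TPM for vehicle and 163 to 905 TPM for MCH, and 0 marker genes were called by edgeR. In bulk RNA, fewer cells of a type and less RNA per cell cannot be told apart, and the part of these cell types in the differences between sides was not tested. Total counts per well ranged from 26083936 to 31844861.

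**Figure D1:**
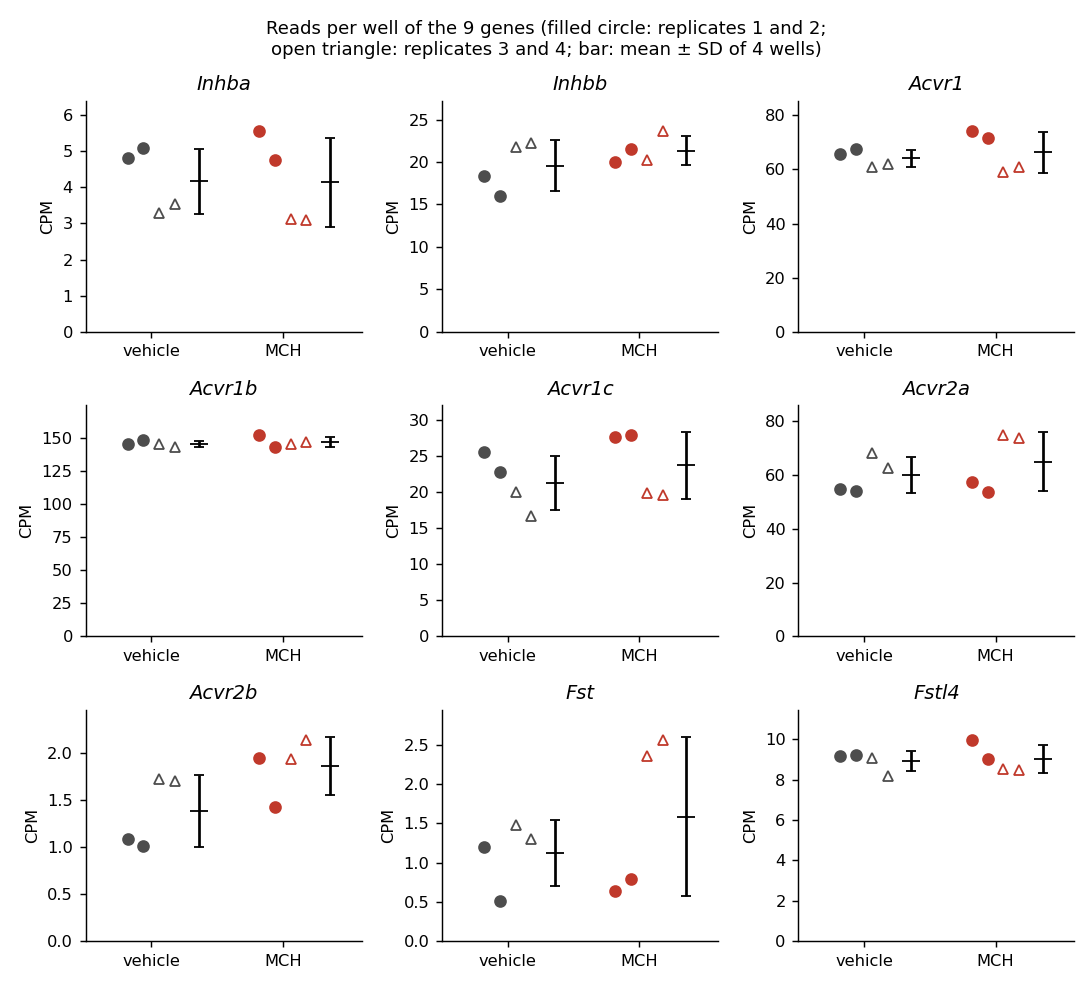
CPM (y axis, from 0) of each gene in the 4 vehicle-treated and 4 MCH-treated wells, with filled circles for replicates 1 and 2, open triangles for replicates 3 and 4, and the mean ± SD beside them. In *Inhba*, *Acvr1*, *Acvr1c*, *Acvr2a* and *Fst* the 4 circles do not overlap the 4 triangles, whereas the treatments overlap in all 9 genes.

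*Inhba* (ENSMUSG00000041324, chromosome 13 of GRCm38, 16011851 to 16031621, plus strand) encodes the βA subunit, the chain of activin A. The vehicle-treated wells, in the order of replicates 1 to 4, had 4.80, 5.07, 3.28 and 3.53 CPM. The MCH-treated wells had 5.56, 4.77, 3.11 and 3.09 CPM. High values thus lay in replicates 1 and 2 of either treatment and low values in replicates 3 and 4, and the treatments covered each other. The means were 4.17 ± 0.898 CPM with vehicle and 4.13 ± 1.23 CPM with MCH (SD, n = 4 wells). This gave a log2 fold change of −0.012 (standard error 0.23, 95% interval −0.54 to 0.51, adjusted *P* from edgeR near 1). Between sides, replicates 3 and 4 were lower by 0.62 on the log2 scale (difference −0.62 in mean log2 CPM). MCH and vehicle differed by 0.06 on the first side and by −0.13 on the other.

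*Inhbb* (ENSMUSG00000037035, chromosome 1, 119415465 to 119422248, minus strand) encodes the βB subunit of activin B. Its wells had 18.3, 16.0, 21.8 and 22.2 CPM with vehicle in the order of the replicates, and 19.996, 21.5, 20.2 and 23.7 CPM with MCH. Only vehicle replicates 1 and 2 lay below the MCH-treated wells, and the treatments overlapped. The means were 19.6 ± 2.97 and 21.4 ± 1.68 CPM (SD, n = 4), with a log2 fold change of 0.12 (standard error 0.11, 95% interval −0.12 to 0.37, adjusted *P* = 0.849 from edgeR). The difference was 0.28 on the side of replicates 1 and 2 and −0.0087 on that of replicates 3 and 4.

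Per length, βB message was more abundant than βA message in every well. The ratio of *Inhba* to *Inhbb* in TPM was 0.67 to 0.934 in replicates 1 and 2 and 0.395 to 0.456 in replicates 3 and 4, so both sides were below 1. With vehicle the ratio averaged 0.646 ± 0.255 and with MCH 0.586 ± 0.205 (SD, n = 4), a difference smaller than the spread between wells.

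The type I receptors carry the kinase that phosphorylates the Smad proteins. *Acvr1b* (ENSMUSG00000000532, chromosome 15, 101174067 to 101213684, plus strand), also called ALK4, is the main type I receptor of activins. It was the steadiest of the 9 genes across the sides, with a difference of −0.02 in mean log2 CPM. Its wells had 145, 149, 145 and 143 CPM with vehicle, compared with 152, 143, 145 and 147 CPM with MCH, and no replicate stood apart. The means were 146 ± 2.34 and 147 ± 3.77 CPM (SD, n = 4). The log2 fold change of 0.011 had the narrowest interval of the 9 (standard error 0.03, 95% interval −0.06 to 0.09, adjusted *P* = 0.997 from edgeR).

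*Acvr1* (ENSMUSG00000026836, chromosome 2, 58388644 to 58567157, minus strand), or ALK2, mainly serves bone morphogenetic proteins and can also be bound by activins. It had 65.8, 67.4, 61.1 and 62.0 CPM in the vehicle-treated wells and 74.2, 71.5, 59.0 and 60.7 CPM in the MCH-treated wells. Replicates 1 and 2 were the higher ones in both treatments, by more with MCH than with vehicle. The means were 64.1 ± 3.03 and 66.4 ± 7.64 CPM (SD, n = 4), and the log2 fold change was 0.05 (standard error 0.08, 95% interval −0.12 to 0.23, adjusted *P* = 0.959 from edgeR). On the side of replicates 1 and 2 the difference was 0.13, on the other −0.04.

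*Acvr1c* (ENSMUSG00000026834, chromosome 2, 58267453 to 58357895, minus strand), or ALK7, is a type I receptor for activin B and Nodal. Values of 25.5, 22.8, 20.1 and 16.7 CPM were found with vehicle and 27.6, 27.8, 19.8 and 19.6 CPM with MCH. As for *Inhba*, the high wells were replicates 1 and 2 of both treatments. The means were 21.2 ± 3.76 and 23.7 ± 4.63 CPM (SD, n = 4), with a log2 fold change of 0.16 (standard error 0.17, 95% interval −0.22 to 0.54, adjusted *P* = 0.901 from edgeR). Replicates 3 and 4 differed from replicates 1 and 2 by −0.44 in mean log2 CPM. Within the sides MCH and vehicle differed by 0.20 and 0.11.

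The type II receptors bind the ligand first. *Acvr2a* (ENSMUSG00000052155, chromosome 2, 48814109 to 48903269, plus strand) had 55.0, 54.1, 68.3 and 62.8 CPM with vehicle, compared with 57.5, 53.9, 74.8 and 73.9 CPM with MCH. Here replicates 3 and 4 were the higher ones, by 0.34 in mean log2 CPM, the reverse of *Inhba* and *Acvr1c*. The means were 60.1 ± 6.75 and 65.0 ± 10.9 CPM (SD, n = 4), and the log2 fold change was 0.11 (standard error 0.13, 95% interval −0.17 to 0.40, adjusted *P* = 0.908 from edgeR). Treatments differed by 0.03 on the side of replicates 1 and 2, on the other by 0.18. The 3′ end of *Acvr2a* overlaps *Orc4* on the other strand, and the libraries were stranded.

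*Acvr2b* (ENSMUSG00000061393, chromosome 9, 119402118 to 119434995, plus strand) was the type II receptor with few reads, between 28 and 61 counts per well. With vehicle it had 1.08, 1.01, 1.73 and 1.71 CPM, and with MCH 1.95, 1.43, 1.94 and 2.14 CPM. Each MCH-treated well was above the vehicle-treated well of the same number, while MCH replicate 2 was below vehicle replicates 3 and 4, so the treatments overlapped. It was the 1 gene of the 9 that was higher with MCH in all 4 pairs, as were 11.5% of all genes tested. The means were 1.38 ± 0.387 and 1.86 ± 0.306 CPM (SD, n = 4). Its log2 fold change was 0.43 (standard error 0.24, 95% interval −0.12 to 0.97, adjusted *P* = 0.705 from edgeR), and 0.63 and 0.24 separated the treatments within the sides.

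*Fst* (ENSMUSG00000021765, chromosome 13, 114452290 to 114458951, minus strand) encodes follistatin and was the least abundant of the 9, with 14 to 73 counts per well. The vehicle-treated wells had 1.20, 0.507, 1.48 and 1.30 CPM, and the MCH-treated wells had 0.639, 0.79, 2.35 and 2.56 CPM. MCH replicates 3 and 4 were the highest of the 8 wells, whereas MCH replicates 1 and 2 were among the lowest. The means were 1.12 ± 0.426 and 1.59 ± 1.01 CPM (SD, n = 4). Its log2 fold change of 0.50 had the widest interval of the 9, from −0.65 to 1.64 (standard error 0.51, adjusted *P* = 0.892 from edgeR). On the side of replicates 1 and 2 the difference was −0.13, on the other 0.79, and it was −0.84 in the pair with number 1 against 0.57 to 0.94 in the other pairs.

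*Fst* rests on few reads, and its closest wells across the sides had 31 counts (vehicle replicate 1) and 35 counts (vehicle replicate 4). It had the largest difference between the sides, 1.23 higher in replicates 3 and 4 in mean log2 CPM. *Inhba* and *Fst* thus lay on opposite ends: the ratio of *Inhba* to *Fst* in TPM was 6.24 to 15.3 in replicates 1 and 2 and 1.90 to 4.06 in replicates 3 and 4. By treatment it was 7.19 ± 5.58 with vehicle and 6.77 ± 5.81 with MCH (SD, n = 4), with no separation of the wells. The other ligand subunit, *Inhbb*, did not share this contrast. It was 0.22 higher in replicates 3 and 4 in mean log2 CPM, as *Fst* was higher there, and its sides overlapped.

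*Fstl4* (ENSMUSG00000036264, chromosome 11, 52764634 to 53188538, plus strand) encodes a follistatin-like secreted protein, grouped here by its follistatin-type sequence and not as a known activin inhibitor. It had 9.18, 9.20, 9.10 and 8.17 CPM with vehicle, compared with 9.97, 9.05, 8.51 and 8.50 CPM with MCH. Vehicle replicate 4 was the lowest well and MCH replicate 1 the highest. The means were 8.91 ± 0.495 and 9.005 ± 0.69 CPM (SD, n = 4), and the log2 fold change was 0.015 (standard error 0.08, 95% interval −0.17 to 0.20, adjusted *P* from edgeR near 1).

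**Figure D2:**
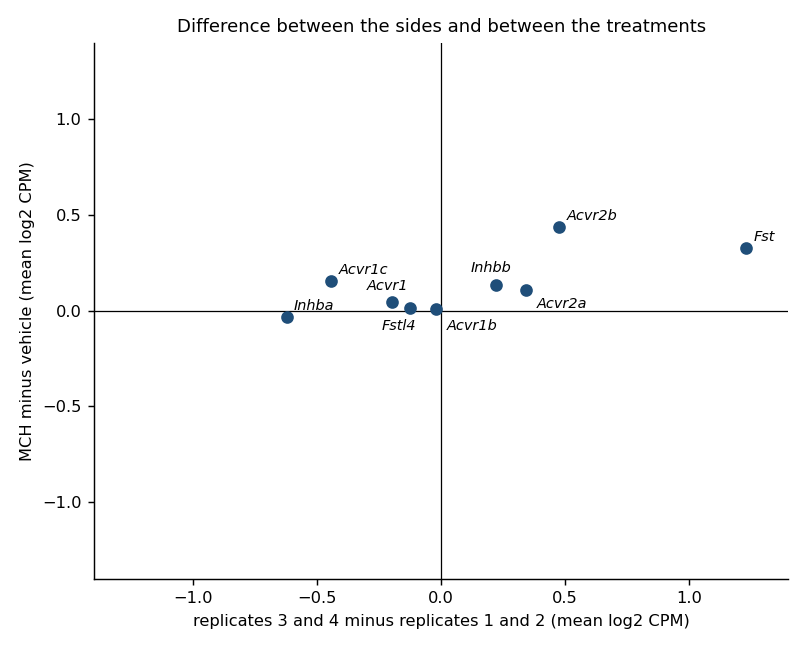
Each point is 1 gene, with the difference between replicates 3 and 4 and replicates 1 and 2 on the x axis and the difference between MCH and vehicle on the y axis, both in mean log2 CPM over 4 wells. The genes spread from −0.62 (*Inhba*) to 1.23 (*Fst*) along x and from −0.04 (*Inhba*) to 0.44 (*Acvr2b*) along y.

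Wells of the same side varied together, and same-numbered wells about as closely as other wells of that side. The comparison was therefore repeated with a block for the side and with a block for the replicate number. The block for the side narrowed the intervals, in *Inhba* to −0.27 to 0.22 and in *Acvr1* to −0.04 to 0.13, and called 0 of the 9 genes against 4.46% of all genes. The side was read from these same counts, so this block takes out spread that was found in them. Its intervals may therefore be too narrow and its *P* values too small. The replicate block also called 0 of the 9, against 3.98% of all genes. Without adjustment, 3 of the 9 genes had a *P* value under 0.05 with either block, where 18.2% of all genes did with the block for the side and 17.6% with the replicate block. These were *Acvr1c*, *Acvr2a* and *Acvr2b*, all with higher estimates for MCH. With the side as a block, the log2 fold change of *Acvr2a* was 0.11 (standard error 0.04, adjusted *P* = 0.156 from edgeR). That of *Acvr1c* was 0.15 (standard error 0.06, adjusted *P* = 0.178 from edgeR). That of *Acvr2b* was 0.45 (standard error 0.19, adjusted *P* = 0.211 from edgeR).

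**Figure D3:**
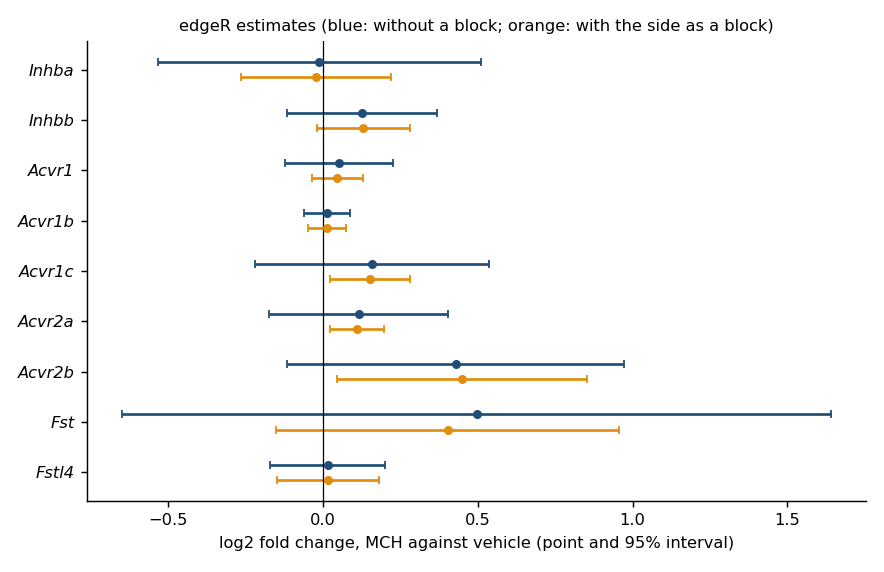
Log2 fold change of MCH against vehicle (x axis) with its 95% interval for the 9 genes, from edgeR without a block (blue) and with the side as a block (orange). Without a block all 9 intervals include 0, and with it those of *Acvr1c*, *Acvr2a* and *Acvr2b* lie above 0 before adjustment for the number of genes. The side was read from these same counts.

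Levels can be compared between genes in TPM, which take transcript length into account. Averaged over the 8 wells, *Acvr1b* had 59.7 ± 1.38 TPM (SD), *Acvr1* 41.7 ± 3.73, *Acvr2a* 23.2 ± 2.86 and *Inhbb* 8.69 ± 1.09. Lower levels were found for *Inhba* with 5.19 ± 1.34 TPM, *Acvr1c* with 5.02 ± 0.906, *Fstl4* with 3.69 ± 0.231, *Acvr2b* with 1.89 ± 0.493 and *Fst* with 1.11 ± 0.629. The ranges over the wells separated *Acvr1b*, *Acvr1*, *Acvr2a* and *Inhbb* from one another up to the step from *Inhbb* to *Inhba*, where they overlapped. *Inhba* and *Acvr1c* were not apart, since *Inhba* was the lower of the 2 in 4 of the 8 wells. The ranges of *Acvr1c* and *Fstl4* and those of *Acvr2b* and *Fst* overlapped too, although the order within each well held. Summed message of the listed receptors thus exceeded that of *Inhba* and *Inhbb*: the 3 type I receptors summed to 101 to 116 TPM and the 2 type II receptors to 21.2 to 30.0 TPM per well. By gene this did not hold throughout, since *Acvr2b* was below both ligand subunits. Other ligand or subunit genes of the family are left out, among them *Inha* (mean 23.4 TPM) and *Tgfb2* (mean 20.1 TPM).

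Among the activin receptors listed in each class, 1 gene held most of the message. The shares below are of these receptors only. They leave out other receptors of the same classes, among them *Bmpr1a* (type I, mean 27.5 TPM) and *Bmpr2* (type II, mean 28.6 TPM, above *Acvr2a* at 23.2). *Acvr1b* made up 52.0% to 58.3% of type I receptor TPM, *Acvr1* 37.0% to 42.3% and *Acvr1c* 3.59% to 5.63%. *Acvr2a* made up 90.6% to 94.5% of type II receptor TPM. The share of *Acvr2b* averaged 6.59% ± 1.18 with vehicle and 8.30% ± 0.969 with MCH (SD, n = 4), with overlapping wells.

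**Figure D4:**
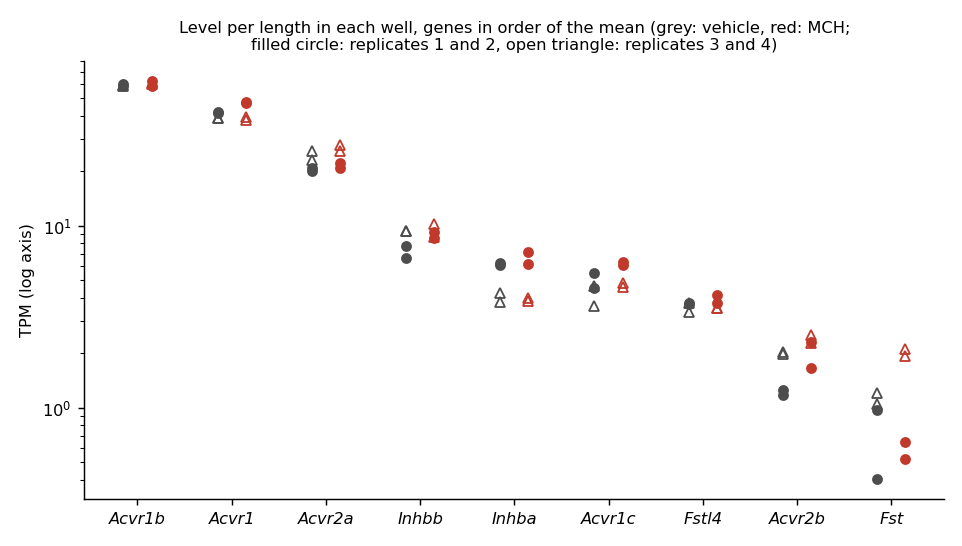
TPM (log y axis) of the 9 genes in each of the 8 wells, in order of their mean, with vehicle in grey and MCH in red, filled circles for replicates 1 and 2 and open triangles for replicates 3 and 4. The mean falls from 59.7 TPM in *Acvr1b* to 1.11 TPM in *Fst*.

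The transcripts of these genes were compared in the same way. Of 21 transcripts in the tables, 17 passed the filter, and 0 were called by edgeR. Of all 33527 transcripts tested, 0% were called. Without adjustment, 0 of the 17 had a *P* value under 0.05, against 4.4% of all transcripts. DESeq2 also called 0 of them, against 0.838% of all transcripts, with 2 of the 17 under an unadjusted *P* value of 0.05, against 7.19% of all transcripts. *Inhba* was read mainly from its 3-exon transcript Inhba-202 (ENSMUST00000164993), which held 54.8% to 89.9% of the gene's TPM. Its mean was 5.50 TPM in replicates 1 and 2 and 2.92 TPM in replicates 3 and 4. The 5-exon transcript Inhba-201 (ENSMUST00000042603) averaged 0.887 and 1.07 TPM. With 11.5 to 48.8 estimated counts per well, its share of the gene rests on few reads.

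Among the receptors, Acvr2a-201 held 77.7% to 88.6% of *Acvr2a* TPM and Acvr1c-201 75.8% to 89.2% of *Acvr1c* TPM. Acvr1-204 held 53.3% to 83.2% of *Acvr1* TPM. Acvr1-203 went from 0% to 32.5% and Acvr2b-201 from 0% to 85.1% of their genes between wells, which limits what can be read from single transcripts of *Acvr1* and *Acvr2b*. For *Inhbb*, *Acvr1b*, *Fst* and *Fstl4*, the tables held 1 transcript each, so its share was fixed.

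RefSeq promoter windows on GRCm38.p6, 250 bases before to 50 bases after a start, were matched by symbol for 8 of the 9 genes (9 windows, 2 of them for *Acvr1c*). *Fst* was not matched. Each window was searched on both strands for the cAMP response element TGACGTCA, its core TGACG, the AP-1 site TGANTCA and the Smad box GTCTAGAC. These letters occur in 1.79%, 20.8%, 7.81% and 0.213% of the 32851 windows of that length. Only the window of *Fstl4* held a match, and it was the full element TGACGTCA, at chromosome 11 from 52764629 to 52764636, whose core lies within it. It starts 77 bases before the RefSeq start and runs over the GENCODE start at 52764634. The stretch is shown with the element in capitals, next to the 250 bases before the start of Inhba-201, the ligand's 5-exon transcript, which held none of the 4 motifs. A match is a description of letters and not of binding, and the start of the more abundant Inhba-202, at 16014475, lies outside the window.

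Fstl4, chr11:52764456-52764655, plus strand: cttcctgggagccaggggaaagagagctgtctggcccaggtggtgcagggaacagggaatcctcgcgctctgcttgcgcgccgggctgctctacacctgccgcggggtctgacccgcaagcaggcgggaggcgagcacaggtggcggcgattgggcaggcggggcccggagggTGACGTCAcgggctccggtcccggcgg
Inhba, chr13:16011601-16011850, plus strand: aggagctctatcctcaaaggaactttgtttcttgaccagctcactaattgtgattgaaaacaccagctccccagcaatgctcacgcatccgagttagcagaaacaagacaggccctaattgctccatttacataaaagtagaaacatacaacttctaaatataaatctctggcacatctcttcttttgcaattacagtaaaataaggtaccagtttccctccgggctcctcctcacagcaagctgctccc
In these letters 72% of the *Fstl4* bases and 43.2% of the *Inhba* bases are G or C.

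The genes with the profile nearest to *Inhba* were sought among 13398 tested genes with a mean of at least 1 CPM. Nearness was the mean, over the 8 wells, of the absolute difference in log2 CPM after each gene's own mean was taken out. The nearest 5 were *Tmem132d* (0.057), *Epb41l4a* (0.059), *Hspa5* (0.064), *Gfra1* (0.066) and *Stk32a* (0.067), against a median of 0.31 over all genes compared. *Hspa5*, a chaperone of the endoplasmic reticulum, had 490 to 516 CPM in replicates 1 and 2 and 332 to 378 CPM in replicates 3 and 4. *Gfra1*, a co-receptor of glial cell line-derived neurotrophic factor, had 71.4 to 81.0 CPM and 44.6 to 52.8 CPM. That their high wells were replicates 1 and 2 follows from how they were chosen. Of the other 8 activin genes, *Acvr1c* was the nearest at 0.17 and *Fst* the farthest at 0.93.

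Other genes of the family were taken from a list of 59 ligands, receptors, antagonists or follistatin-like genes, Smad proteins and their cofactors. Of these, 58 were in the table and 45 passed the filter. The edgeR test called 0 of the 45 in either direction without a block, against 0.234% of all genes, with 21 positive and 24 negative log2 fold changes and a median of −0.0061. Without adjustment, 4 of the 45 had a *P* value under 0.05, against 8.5% of all genes. The median was 0.07 over 9 other ligands, −0.03 over 7 other receptors, −0.05 over 8 antagonists or follistatin-like genes, 0.02 over 7 Smad proteins and −0.011 over 14 cofactors.

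The 2 genes of highest TPM in each role were not called either. *Inha*, the α subunit that turns a β chain into an inhibin, had 17.1 ± 1.83 CPM with vehicle, compared with 16.7 ± 1.37 CPM with MCH (SD, n = 4), and its log2 fold change was −0.03. *Tgfb2*, a TGF-β ligand, had one of −0.08, and the type I and type II receptors of bone morphogenetic proteins, *Bmpr1a* and *Bmpr2*, had −0.05 and 0.19. *Bmpr2* averaged 198 ± 7.35 CPM with vehicle and 226 ± 20.8 CPM with MCH (SD, n = 4, adjusted *P* = 0.411 from edgeR). The follistatin-like genes *Fstl1* and *Fstl5* had log2 fold changes of 0.10 and 0.07. *Smad2*, which the activated activin receptor phosphorylates, had 38.6 ± 1.07 and 36.4 ± 1.57 CPM (SD, n = 4), with a log2 fold change of −0.09 (95% interval −0.19 to 0.01), and *Smad4*, its partner, one of 0.02. The cofactors *Ppm1a*, a phosphatase of Smad proteins, and *Ski*, a repressor of them, had −0.04 and −0.02.

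*Smad7*, the inhibitory Smad that blocks type I receptors and is itself induced by the pathway, was the 1 gene of the 45 that any fit on all 8 wells called. It is named because of that call, after its values were seen. Its wells had 11.1, 10.9, 10.01 and 10.7 CPM with vehicle, compared with 8.85, 7.73, 8.23 and 6.95 CPM with MCH. The highest MCH-treated well was thus below the lowest vehicle-treated well, a separation seen in 0 of the 9 activin genes, in 2 of the 45 (*Smad7* and *Trim33*) and in 6.03% of all genes. The means were 10.7 ± 0.485 and 7.94 ± 0.803 CPM (SD, n = 4). Without a block the log2 fold change was −0.43 and missed the threshold (standard error 0.09, 95% interval −0.63 to −0.23, adjusted *P* = 0.14 from edgeR). With the side as a block it was −0.43 (standard error 0.08) and passed the threshold (adjusted *P* = 0.00415 from edgeR), with the limit that the side was read from these same counts. It also passed with the replicate block (adjusted *P* = 0.00645 from edgeR) and in DESeq2 without a block (adjusted *P* = 0.0185). On the side of replicates 1 and 2 the log2 fold change was −0.41, on the other −0.45. *Smad7* missed the threshold in limma voom, with RLE factors, with the 2 other filters and with the length offset. The lowest adjusted *P* of a family gene in these ran from 0.132 (1 CPM filter) to 0.60 (length offset), both from edgeR. Each of the fits that called *Smad7* called 1 of the 45. Of all genes tested, 4.46% were called with the block for the side, 3.98% with the replicate block and 1.14% in DESeq2.

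**Figure D5:**
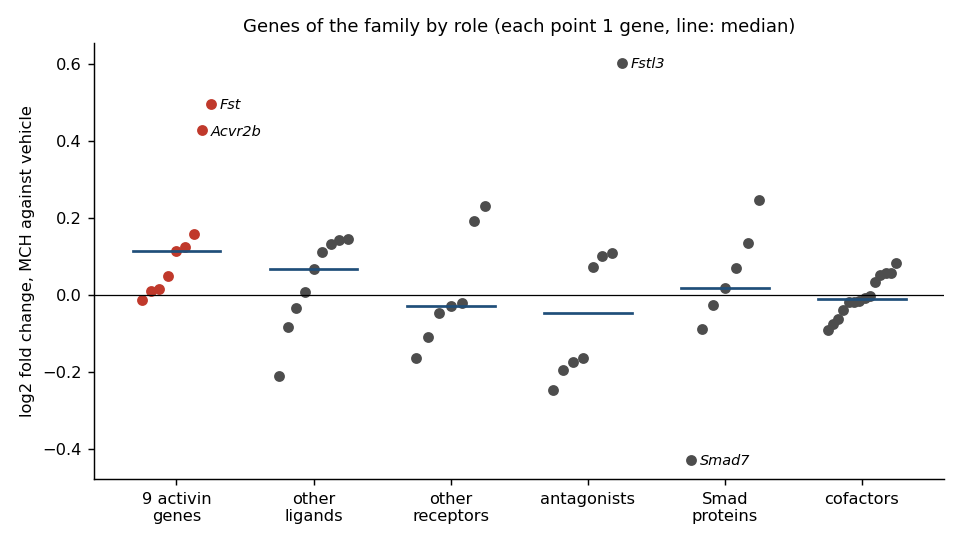
Log2 fold change of MCH against vehicle (y axis) for the 9 activin genes (red) and the 45 other genes of the family that were tested, by role, with a line at the median of each group. *Fstl3* (0.60) and *Smad7* (−0.43) are the highest and the lowest of the 54 points, and 0 of the points were called by edgeR without a block.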

How the data were processed

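RNA-seq data from 4 vehicle-treated and 4 MCH-treated wells were used, grouped by the titles of the samples. Poly-A RNA was sequenced as stranded libraries. The authors quantified reads with salmon in nf-core/rnaseq v3.0 on GRCm38 and deposited estimated counts per gene and per transcript, not scaled, and TPM per transcript, scaled by salmon for effective length and depth. The authors' own comparison used DESeq2. Names came from GENCODE vM21, which may not be the authors' annotation (45143 of 45706 genes matched).

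Estimated counts were rounded and tested in R 4.3.3 with edgeR 4.0.16 (TMM, filterByExpr with a count minimum of 10 and a total minimum of 15, robust quasi-likelihood F test, no covariate), adjusted by Benjamini–Hochberg over the 14962 genes or 33527 transcripts that passed. The standard error is the log2 fold change over the square root of F. Fits were tested on simulated data. Alternatives were DESeq2 1.42.0, limma 3.58.1 voom, RLE factors, 2 other filters, a replicate block, a block for the side, a length offset and leaving out each well. TPM were summed per gene. Genes with 3 counts or fewer in every well were taken as not detected, a floor that covers counting error only. The 95% intervals of log2 fold changes came from the quasi-likelihood fit, which takes in the spread between wells.

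Replicate numbers pair the wells by a rule on correlations of deviations from treatment means (over 0.1 in every pair): same-numbered wells correlated at 0.445 to 0.545, other numbers on the same side at 0.475 to 0.521, and wells of different sides at −0.548 to −0.438. The pairing comes from these values, since no label says what a number marks. Other numbers on the same side would pass the rule too, so it does not single out the same-numbered pairs.

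The activin genes and lists were chosen with earlier results of these data known. Named besides the 9 genes are the 2 genes of highest TPM in each role of the list, genes of it called by edgeR without a block, the 5 genes nearest to *Inhba*, and transcripts with at least 5% of their gene's TPM. *Smad7*, *Trim33* and *Fstl3* and the marker genes given with values were named after their values were seen. Other experiments of the study were not analysed here.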

Additional observations from a re-analysis of the deposited data

Results flagged for a closer look

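In *Fstl4*, vehicle replicate 4 stood apart from its group with 8.17 CPM, while the other vehicle-treated wells had 9.10 to 9.20 CPM. The gap was 0.894 of the group's range, above Dixon's 95% critical value for 4 samples. It was the 1 group flagged of the 18 looked at (9 genes in 2 treatments), and chance flags about 1 group in 20.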

How the results depend on the processing

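The number of activin genes called stayed at 0 of 9 in all 16 alternatives, and that of their transcripts at 0 in all 11. For the transcripts this is little check, since few were called at all. Of all 33527 transcripts tested, 0 were called as reported and with the replicate block, 6 with the block for the side and 281 in DESeq2. Over all genes tested, 35 were called in the comparison as reported, and 170 in DESeq2, 596 with the replicate block, 668 with the block for the side and 7 with the length offset. With 1 well left out, the number ranged from 4 to 29 (without vehicle replicate 1, 2 or 4, it was 5, 9 or 4, and without MCH replicate 2, 3 or 4, it was 12, 10 or 7). Of the other family genes, 0 were called as reported and 1, *Smad7*, in DESeq2, with the replicate block and with the block for the side, and 0 in each fit without a well. In limma voom, with RLE factors, with the 2 other filters and with the length offset, 0 were called too. Apart from *Smad7* and the count over all genes, the replicate block changed no call.

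Of 144 repeated log2 fold changes of the 9 genes, 134 kept their sign and 10 did not. *Inhba* became 0.00027 with a filter of at least 1 CPM in 4 wells and 0.042 with the length offset, and ranged from −0.19 to 0.11 with 1 well left out, positive without vehicle replicate 1 or 2 or MCH replicate 3 or 4. *Acvr1* ranged from −0.0050 to 0.11 and *Acvr1b* from −0.0024 to 0.028, negative without MCH replicate 1. *Fstl4* ranged from −0.035 to 0.049, negative without vehicle replicate 4 or MCH replicate 1. With 1 well left out, *Fst* ranged from 0.17 to 0.76, *Acvr2b* from 0.31 to 0.56, *Acvr1c* from 0.064 to 0.26, *Acvr2a* from 0.047 to 0.20 and *Inhbb* from 0.043 to 0.19. Leaving out transcripts under 500 bases is no check of the TPM levels here, since it removed no reads of the 9 genes. The cause of these moves was not tested. *Acvr2b* and *Fst* had the fewest reads and the widest intervals.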

Other observations

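*Fstl3*, a follistatin-like gene of few reads whose product also binds activins, had the highest log2 fold change among the other family genes, and it is named for that value. It had 0.542, 0.906, 1.20 and 0.669 CPM in vehicle replicates 1 to 4 and 1.37, 1.43, 1.31 and 0.948 CPM in the MCH-treated wells, which overlap. Its log2 fold change of 0.60 missed the threshold (standard error 0.28, adjusted *P* = 0.613 from edgeR without a block and 0.224 with the side as a block). Other family genes at 6 counts or fewer in every well and not tested were *Inhbc*, *Inhbe*, *Nodal*, *Gdf3*, *Bmp4*, *Acvrl1*, *Tdgf1*, *Cfc1*, *Lefty1*, *Lefty2*, *Smad6* and *Foxh1*.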
